A study of Mus musculus with 12 samples.

Results

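P2rx3, Scn10a, Scn11a and Trpc6 are 4 genes for cation channels found in sensory neurons, and they were followed here over all 4 groups of the study. The members were chosen by name, and each was measured through counted intervals that lie over its own exons on the mouse genome build GRCm38. They are 4 of the 9969 genes that could be named by position in this way. All 4 passed the filter on low counts, as did 4769 of the named genes.

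Bulk sequencing of poly(A)-enriched RNA, with paired reads of 150 bases, was made from trigeminal ganglia. The mice were C57BL/6J females and 8 weeks old, and there were 12 libraries, 3 in each group. Controls were untreated. Injured mice had a wound of 1.5 mm cut into the cornea of a randomly chosen eye (keratectomy) and were sampled 2 weeks later, with ketamine, xylazine and an analgesic given for the surgery. The group with injury and stimulation had the same wound and drugs and also electrical stimulation under isoflurane, at 300 µA and 20 Hz, for 4 min a day over 14 days. The group with stimulation alone had this stimulation and isoflurane without a wound. The groups therefore differ in anaesthetics and analgesic as well as in wound and current, and these cannot be told apart. Sham electrodes are mentioned by the submitters, but no library is labelled as sham. Nor do the labels say how many mice or which side of the head went into a library, so p-values measure the spread between libraries.

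The trigeminal ganglion holds the cell bodies of the sensory neurons of the face, including those that supply the cornea. P2rx3 encodes a subunit of channels that open on binding ATP released from damaged tissue, and it marks mainly the nociceptors (pain-sensing neurons) that are called non-peptidergic. Scn10a and Scn11a encode voltage-gated sodium channels that resist tetrodotoxin. The Scn10a channel carries much of the current of the action potential in nociceptors, and the Scn11a channel carries a persistent current near the resting potential that sets excitability. Trpc6 encodes a cation channel of the TRP family that opens with diacylglycerol. It is found in sensory neurons and also in vascular smooth muscle.

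The libraries held between 7952798 and 10751550 counted reads. Marker genes of sensory neurons were high in every library: the 4 tested of 13 summed to 4069 to 4656 CPM (counts scaled to 1e6 per library) in controls, 6301 to 7817 after injury, 5531 to 10249 after injury with stimulation and 7491 to 9128 with stimulation alone. Markers of other cells moved with the injury group: the 6 tested of 8 fibroblast and meningeal markers summed to 27329 to 27620 CPM after injury, against 4689 to 10035 in the other 9 libraries. Ptgds made up most of that sum (5226 CPM in controls and 21985 after injury on average). Of these 6 genes 4 were called higher after injury, while Dcn (0.13, adjusted p = 0.58) and Postn (-0.77, adjusted p = 0.075) were not called. The 4 tested oligodendrocyte markers summed to 588 to 1069 CPM after injury and to 146 to 460 in the others. In whole tissue, fewer cells of a type and less RNA per cell cannot be told apart, and the part of these other cells in the results below was not tested.

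What was counted differed between the members. The counting intervals follow GRCm39 gene models while the reads lie at GRCm38 positions, so a gene is read through whatever interval falls over its exons, and the levels of the members cannot be compared with each other. For P2rx3 (minus strand of chr2:84998583-85037462) this was an interval deposited under the name Gm13713 that holds 123 coding bases in 2 exons, 693 bases of P2rx3 intron and 86 bases within another gene. For Scn10a (minus strand of chr9:119608456-119719322) it was the interval deposited as Scn11a, which holds 165 coding bases in 2 exons, 2978 bases of Scn10a intron and 2788 bases outside any gene. The counted bases of P2rx3 are printed because they are all the P2rx3 exon bases behind its values, and reads of 150 bases that only touch them are counted too. They are from GENCODE M21 transcripts on GRCm38, 5′ to 3′ along the minus strand, and capitals mark bases that also lie under another counted interval, deposited as Lrrc55, where a read counts in both.
P2rx3 exon 7 of 12, chr2:85022348-85022376: GGCAGGATTTTGCCAAGCTGGCCCGCACG
P2rx3 exon 5 of 12, chr2:85023483-85023576: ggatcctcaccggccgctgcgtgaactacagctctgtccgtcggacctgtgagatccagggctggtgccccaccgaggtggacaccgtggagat

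Scn11a (minus strand of chr9:119753759-119825456) lay under 5 tested intervals spread along its transcript of 5899 bases. The interval over more of its exon bases than any other, deposited as Wdr48, holds 1503 bases of the last exon. Of these, 1025 are coding and 478 are untranslated. The median of these exon bases lies 768 bases from the 3′ end of the transcript. This interval also holds 376 bases of Scn11a intron and 7048 bases outside any gene. The interval nearest the 5′ end, deposited as 1700019L13Rik, holds 347 coding bases around 5349 bases from the 3′ end. It runs over 4947 bases inside Scn11a, so most of it is intron. The other intervals also hold bases outside Scn11a exons, and all reads in an interval were counted. A stretch of the last exon and the whole counted part of exon 11 (deposited as Csrnp1) are printed because reads in the intervals over them changed in opposite directions. Capitals mark bases shared with the interval deposited as Gorasp1.
Scn11a exon 27 of 27, chr9:119754263-119754382: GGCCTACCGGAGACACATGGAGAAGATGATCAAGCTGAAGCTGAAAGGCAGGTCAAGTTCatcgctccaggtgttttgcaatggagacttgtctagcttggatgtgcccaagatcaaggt
Scn11a exon 11 of 27, chr9:119803336-119803479: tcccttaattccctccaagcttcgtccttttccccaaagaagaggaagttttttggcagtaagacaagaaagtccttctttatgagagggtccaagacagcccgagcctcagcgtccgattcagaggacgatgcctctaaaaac

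Trpc6 (plus strand of chr9:8544142-8680741) was the only member read through its own identifier, whose interval covers 5053 exon bases, 2871 of them coding. Its value is therefore taken over nearly the whole transcript. Identifiers deposited for other members lay over exons of other genes, that of P2rx3 over Slc43a1 and Timm10 and that of Scn11a over Scn10a.

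P2rx3, the ATP-gated channel subunit, was lower after injury than in controls and than with stimulation alone. The control libraries had 101, 126 and 94.0 CPM. After injury the values were 74.2, 64.1 and 79.7 CPM. With injury and stimulation they were 68.6, 86.5 and 100.1 CPM, and with stimulation alone 103, 99.5 and 132 CPM. All 3 injured libraries lay below every control and every library with stimulation alone, while the libraries with injury and stimulation spread from inside the injured range to inside the control range.

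In mean level, P2rx3 ranked stimulation alone (112 ± 18.1 CPM, SD, n = 3), control (107 ± 17.0), injury with stimulation (85.1 ± 15.8) and injury (72.7 ± 7.94). None of the neighbours in this order differed by the test. After injury P2rx3 differed from control by -0.56 ± 0.17 (SE) on the log2 scale, with an adjusted p of 0.0205 (edgeR quasi-likelihood test, adjusted over 13053 intervals). Against stimulation alone the difference was -0.62 ± 0.17 (adjusted p = 0.0226). The difference between injury with stimulation and injury was 0.23 ± 0.17 (95% interval -0.11 to 0.56, adjusted p = 0.67), and that between stimulation alone and control was 0.06 ± 0.17 (-0.27 to 0.39, adjusted p = 0.83). Neither the injured mice with stimulation against controls (-0.33 ± 0.17, adjusted p = 0.19) nor the interaction of injury and stimulation (0.17 ± 0.24, adjusted p = 0.67) passed the threshold.

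A second interval over P2rx3, deposited as Lrrc55, holds 279 coding bases of P2rx3 in 2 exons but also exons of Prg3. It shares exon bases with the first interval, so these are not separate measurements. It gave 105, 135 and 103 CPM in controls and 80.9, 73.5 and 88.4 after injury, again without overlap. Its log2 difference was -0.50 ± 0.16 (adjusted p = 0.029). The call for injury against control was lost in 3 of the 12 fits without a library, those without control replicate 2 (-0.43, adjusted p = 0.106), injury replicate 1 (adjusted p = 0.0546) or injury replicate 2 (adjusted p = 0.105). That for injury against stimulation alone was lost in 3 as well, those without injury replicate 1 (adjusted p = 0.0685) or 2 (adjusted p = 0.108) or stimulation alone replicate 3 (adjusted p = 0.0734). The counted P2rx3 bases had a GC content of 65.0%, above the upper quartile of tested intervals (55.6%). Without the trend over GC content and length, stimulation alone differed from control by -0.40 (adjusted p = 0.0994) and injury from stimulation alone by -0.33 (adjusted p = 0.193), while injury against control stayed called (-0.73, adjusted p = 0.00712).

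**Figure D1:**
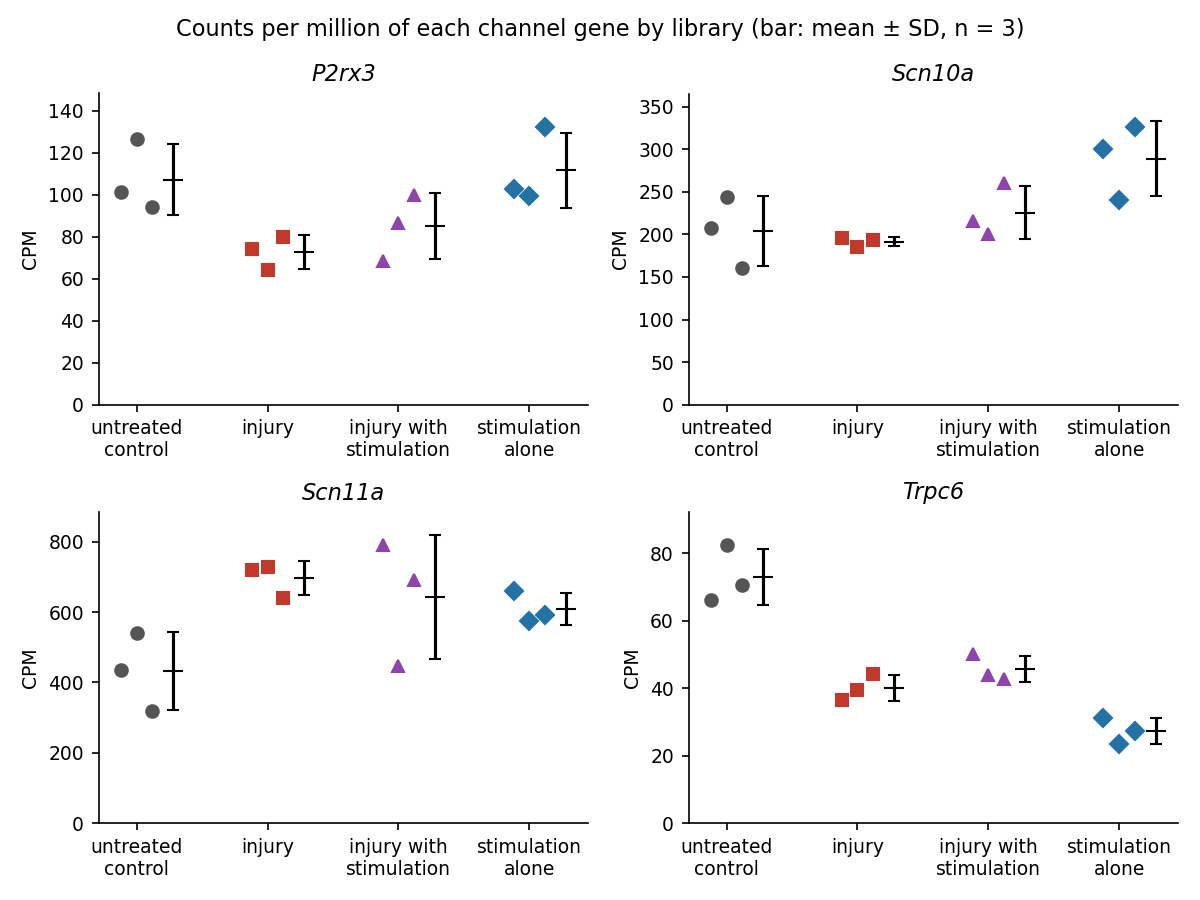
Counts scaled to 1e6 per library (CPM, vertical axis from 0) of P2rx3, Scn10a, Scn11a and Trpc6 in each library of the 4 groups; points are libraries and the bar beside them is the mean ± SD (n = 3). The 3 injured libraries sit below all controls for P2rx3 and above them for the 3′ end of Scn11a, and the 9 libraries of treated groups sit below all controls for Trpc6, from 23.6 to 50.1 CPM against 66.3 to 82.4.

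Scn10a, the sodium channel of the nociceptor action potential, was higher with stimulation alone than in controls and than after injury. Controls had 208, 244 and 161 CPM. The injured libraries had 195, 185 and 193 CPM, a narrow range inside that of the controls. With injury and stimulation the values were 216, 200.2 and 261 CPM, and with stimulation alone 299.7, 240.4 and 326 CPM. The libraries with stimulation alone lay above all injured ones, but the lowest of them lay below the highest control.

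The mean levels of Scn10a ran from stimulation alone (289 ± 44.0 CPM) over injury with stimulation (226 ± 31.4) and control (204 ± 41.6) to injury (191 ± 5.38), and no neighbours differed by the test. Scn10a was higher with stimulation alone than in controls by 0.50 ± 0.17 on the log2 scale (adjusted p = 0.0304). Injury against stimulation alone differed by -0.60 ± 0.17 (adjusted p = 0.0245). After injury the difference from control was -0.09 ± 0.17 (95% interval -0.42 to 0.23, adjusted p = 0.70). In injured mice the difference with stimulation was 0.24 ± 0.17 (-0.09 to 0.56, adjusted p = 0.63), although these groups did not overlap. The interaction was -0.26 ± 0.23 (adjusted p = 0.47), so an effect of stimulation that differed between injured and uninjured mice was not detected.

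Each Scn10a call was lost in 5 of the 12 fits without a library. The rise with stimulation alone lost its call without control replicate 1 (adjusted p = 0.076) or 3 (0.36, adjusted p = 0.16), injury with stimulation replicate 3 (adjusted p = 0.0528), or stimulation alone replicate 1 (0.41, adjusted p = 0.146) or 3 (0.39, adjusted p = 0.122). With the trend over GC content and length removed it was 0.37 (adjusted p = 0.144). With the replicate number as a block both Scn10a calls were lost, at 0.49 (adjusted p = 0.0604) for stimulation alone against control and -0.59 (adjusted p = 0.0508) for injury against stimulation alone.

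Scn11a, the persistent sodium channel, was higher after injury when read at its 3′ end. Controls had 436, 540.1 and 318 CPM in the interval over the last exon. The injured libraries had 720.0, 728 and 639.8 CPM, all above every control. With injury and stimulation the values were 789.5, 448 and 689.8 CPM, and with stimulation alone 661, 574 and 590.3 CPM. Replicate 2 of injury with stimulation stood inside the control range while the other 8 treated libraries lay above it.

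The mean level was 696 ± 48.8 CPM after injury, 642 ± 176 with injury and stimulation, 608 ± 46.0 with stimulation alone and 432 ± 111 in controls. Only injury against control passed the test (0.69 ± 0.21 on the log2 scale, adjusted p = 0.0183). Injury with stimulation against control was 0.57 ± 0.21 (adjusted p = 0.063), and stimulation alone against control was 0.49 ± 0.20 (adjusted p = 0.079) although these last groups did not overlap. The 3 treated groups differed from each other by -0.12 to 0.19, and their neighbours in the order did not differ by the test. The call for injury was lost in 5 of 12 fits without a library (without control replicate 1 or 3, injury replicate 1 or 2, or injury with stimulation replicate 3), where adjusted p reached 0.101 and the differences over all 12 fits ran from 0.51 to 0.88.

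The direction for Scn11a turned with the interval that was counted. At the 5′ end the controls had 18.7, 20.9 and 12.4 CPM and the injured libraries 7.10, 6.59 and 8.47 CPM, so that all injured libraries now lay below every control. Injury with stimulation gave 8.75, 17.6 and 7.80 CPM, and stimulation alone gave 18.0, 19.8 and 47.4 CPM. The log2 difference of injury from control was -1.24 ± 0.37 there (adjusted p = 0.0195), a fall, against the rise of 0.69 at the 3′ end. Between these ends it ran in order of position: 0.42 ± 0.18 (adjusted p = 0.084) at a median of 1072.5 bases from the 3′ end, -0.62 ± 0.26 (adjusted p = 0.078) at 3783 bases and -1.23 ± 0.38 (adjusted p = 0.0219) at 4394.5 bases. The interval at 1072.5 bases shares exon bases with the 3′ one, so these are not 5 separate measurements.

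With injury and stimulation the same positions, from the 3′ end to the 5′ end, gave differences from control of 0.57, 0.34, -0.49, -0.74 and -0.60, none of which passed the test. With stimulation alone the differences were 0.49, 0.39, 0.26, 0.17 and 0.72, all above 0 and none called. Injury against stimulation alone was called at the 3 positions farthest from the 3′ end (-0.88, -1.40 and -1.95) and at neither of the other positions (0.19 and 0.03). Injury with stimulation against stimulation alone was called at the 5′ end (-1.32, adjusted p = 0.0485). Summed over all 5 intervals, Scn11a after injury was 0.46 above control (adjusted p = 0.075). No single direction for Scn11a RNA after injury can be read from these counts.

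**Figure D2:**
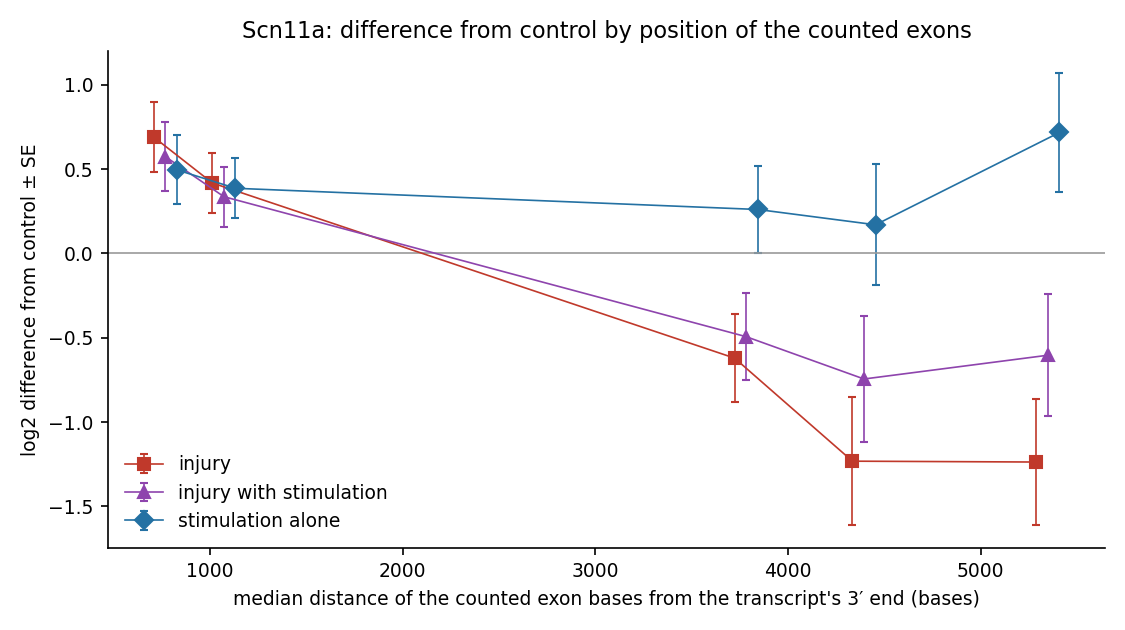
log2 difference of Scn11a from control, ± SE, (vertical axis) against the median distance of the counted exon bases from the 3′ end of the transcript (horizontal axis, bases), for the 3 treated groups; points of the outer groups are set 60 bases to either side so that bars do not cover each other. After injury the difference falls from 0.69 near the 3′ end to -1.24 near the 5′ end, while with stimulation alone it stays above 0. Counts are of whole intervals, which also hold bases outside these exons.

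The same was then asked of other genes. For 565 genes with 2 counted intervals at least 500 transcript bases apart, with at least 120 reads in each interval over the 12 libraries, the log2 ratio of 5′ to 3′ reads was taken in each library as its deviation from the gene's mean over all libraries. The median over these genes is called here the coverage value of a library, and a low value means relatively fewer reads in the 5′ intervals. It was 0.285, 0.245 and 0.246 in controls and -0.286, -0.373 and -0.189 after injury. It was -0.400, 0.149 and -0.207 with injury and stimulation, and 0.146, 0.088 and 0.447 with stimulation alone. Injured libraries and controls did not overlap, and replicate 2 of injury with stimulation stood apart from the others of its group.

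Scn11a moved with this value. Its reads in the 5′ interval, introns included, were 4.29%, 3.88% and 3.90% of those in the 3′ interval in controls. After injury they were 0.986%, 0.904% and 1.32%. With injury and stimulation the shares were 1.11%, 3.93% and 1.13%, and with stimulation alone 2.72%, 3.46% and 8.02%. The library of injury with stimulation that had a control-like coverage value also had a control-like share. From control to injury the 5′ to 3′ ratio was lower in 448 of the 565 genes (79.3%), with a median log2 difference of -0.54. For Scn11a it was -1.93, and 3.01% of the 565 genes fell further. Why the coverage values differ between libraries was not tested. RNA integrity numbers above 7 are stated for all samples, and the labels give no value per library.

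**Figure D3:**
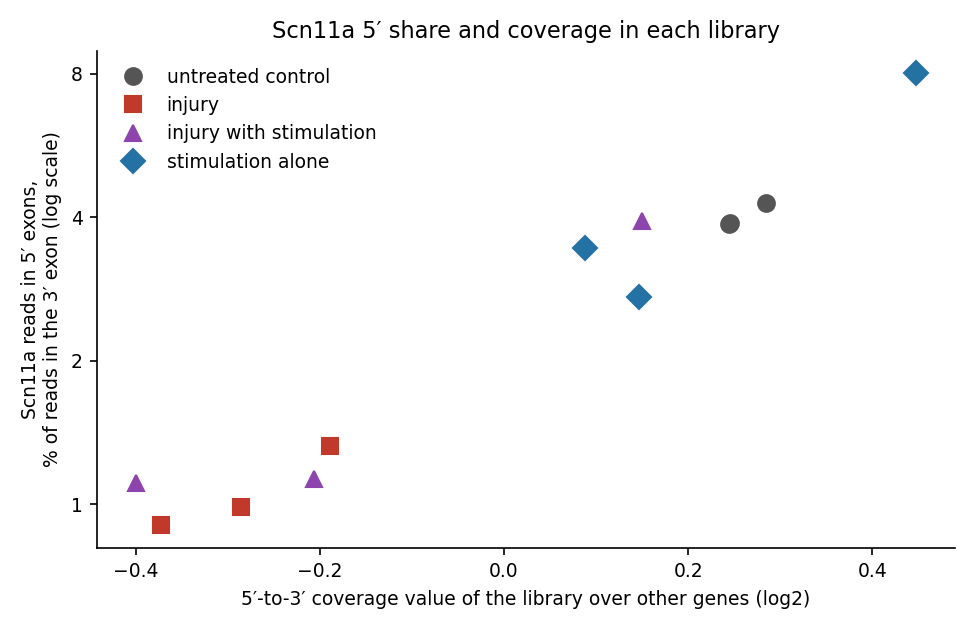
Scn11a reads in the 5′ interval as a percentage of those in the 3′ interval (vertical log axis) against the coverage value of the library over 565 other genes (horizontal axis, log2), one point per library. Both intervals are counted whole, with their bases outside exons. Libraries with injury lie at 0.904% to 1.32% and low coverage values, except for injury with stimulation replicate 2, which lies at 3.93% near the controls.

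The slope of each member on the coverage value was then estimated, and it passed the threshold for none of the 4. When the value was added to the fit as a covariate, which was decided after the data were seen, its slope was 0.74 for P2rx3 (adjusted p = 0.081), -1.04 for the 3′ interval of Scn11a (adjusted p = 0.075), 0.13 for Scn10a (adjusted p = 0.82) and -0.10 for Trpc6 (adjusted p = 0.86) in log2 units per unit of coverage. In this fit P2rx3 after injury differed from control by -0.16 (adjusted p = 0.81) and Scn11a by 0.12 (adjusted p = 0.91), so both calls ended. Trpc6 after injury remained called at -0.92 ± 0.22 (adjusted p = 0.0298), and the rise of Scn10a with stimulation alone was 0.50 (adjusted p = 0.0077). Because the fit gave each group its own mean, the slope comes from the spread inside groups, in large part from injury with stimulation. Injured and control libraries do not share any range of coverage, so their difference in this fit rests on extending that slope between them. For P2rx3 and Scn11a, injury and coverage cannot be told apart with these libraries.

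**Figure D4:**
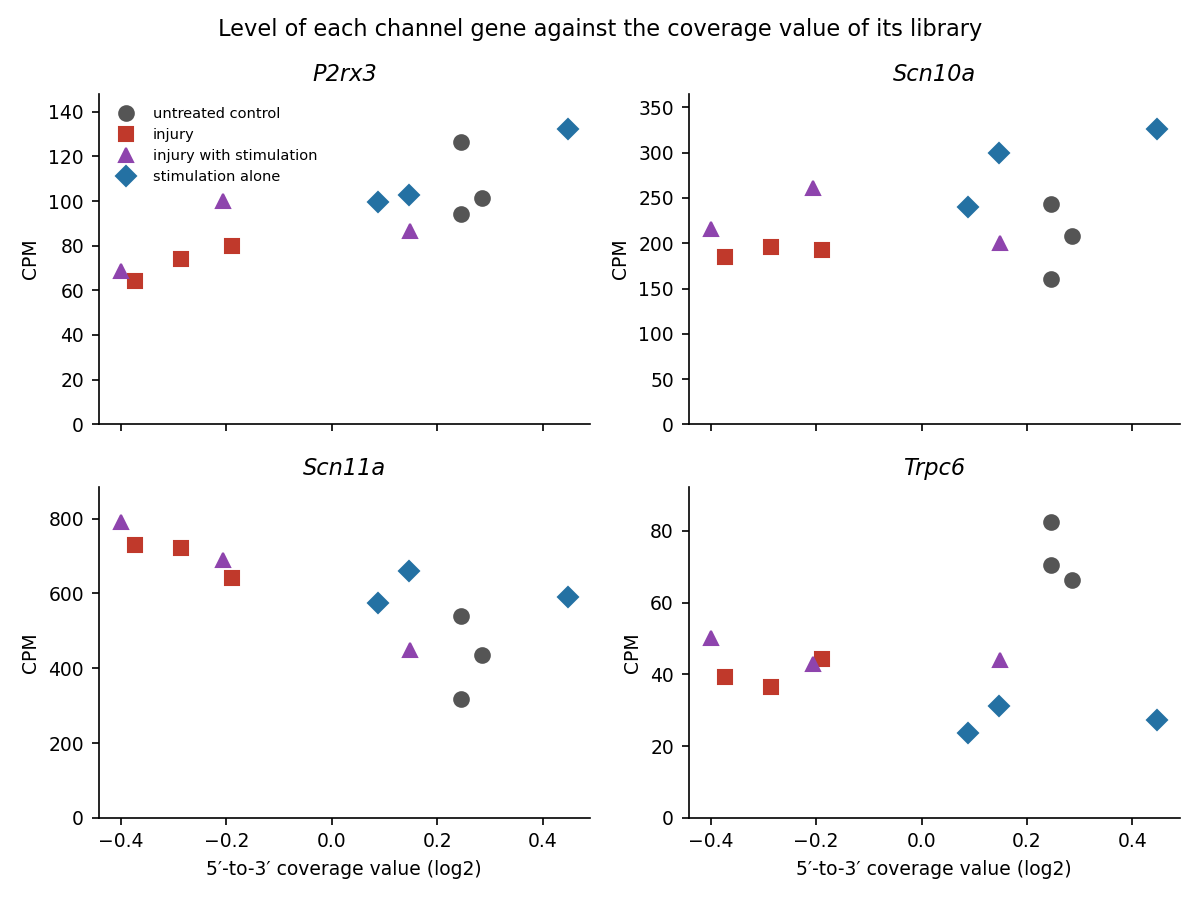
Level of each gene in CPM (vertical axes from 0) against the coverage value of the library (horizontal axes, log2), one point per library and one marker shape per group. Coverage values run from -0.400 to 0.447, and Trpc6 runs from 66.3 to 82.4 CPM in controls and from 23.6 to 31.1 CPM with stimulation alone.

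Trpc6, the diacylglycerol-gated TRP channel, was lower than in controls in all 3 treated groups, and lowest with stimulation alone. Controls had 66.3, 82.4 and 70.6 CPM. Injured libraries had 36.5, 39.4 and 44.2 CPM, and those with injury and stimulation had 50.1, 44.1 and 42.8 CPM. With stimulation alone the values were 31.1, 23.6 and 27.4 CPM. Every treated library lay below every control, and every library with stimulation alone lay below all libraries of both injured groups, which overlapped each other.

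In mean level the order was control (73.1 ± 8.31 CPM), injury with stimulation (45.6 ± 3.90), injury (40.0 ± 3.87) and stimulation alone (27.4 ± 3.74). Against control, Trpc6 fell with injury (log2 difference -0.87 ± 0.15, 0.547-fold, adjusted p = 0.00124), with injury and stimulation (-0.68 ± 0.15, 0.624-fold, adjusted p = 0.00717) and with stimulation alone (-1.42 ± 0.15, 0.374-fold, adjusted p = 3.73e-05). Of the neighbours in this order, only injury with stimulation and injury did not differ by the test (0.19 ± 0.15, 95% interval -0.11 to 0.49, adjusted p = 0.69). Injury with stimulation lay above stimulation alone by 0.74 ± 0.15 (adjusted p = 0.0154), and injury lay above it by 0.55 ± 0.15 (adjusted p = 0.0238).

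Stimulation therefore went with different changes of Trpc6 in uninjured and injured mice. The change with stimulation was -1.42 without a wound and 0.19 with one, and the interaction, which is the difference between these changes, was 1.61 ± 0.21 (adjusted p = 0.000849). The calls for injury and for stimulation alone against control, and that of the interaction, held in each of the 12 fits without a library. Injury with stimulation against control lost its call without injury with stimulation replicate 3 (adjusted p = 0.0545). The differences of the injured groups from stimulation alone were less stable: that of injury with stimulation lost its call in 3 of the 12 fits and that of injury in 5.

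The Trpc6 levels can be read beside the coverage value as well. Replicate 2 of injury with stimulation, with a coverage value of 0.149, had 44.1 CPM of Trpc6. The libraries with stimulation alone had coverage values of 0.088 to 0.447 and 23.6 to 31.1 CPM, and the controls had 0.245 to 0.285 and 66.3 to 82.4 CPM. The part of coverage in the Trpc6 differences was not tested beyond the fit with it as a covariate. Trpc6 is also expressed by vascular smooth muscle. The 5 tested of 10 markers of smooth muscle and pericytes summed to 17.8 to 20.8 CPM in controls, 15.8 to 18.1 after injury, 11.8 to 18.5 with injury and stimulation and 15.9 to 28.7 with stimulation alone, and none of the 5 was called in any comparison. Some markers of other cells were lower in treated groups along with Trpc6, while others were higher. Of the 3 tested of 8 satellite glia markers, Cdh19 and Ptprz1 were called lower in all 3 treated groups against control, and Kcnj10 was called higher with injury and with stimulation alone. Cdh19 had means of 55.0 CPM in controls, 25.3 after injury, 30.0 with injury and stimulation and 18.0 with stimulation alone, the same order as Trpc6, and an interaction of 1.85 (adjusted p = 0.00291). The interaction of Kcnj10 had the opposite sign, at -2.22 (adjusted p = 0.00398). The summed level of the 3 was 387 to 499.5 CPM in controls, 372 to 518 after injury, 304 to 386 with injury and stimulation and 329 to 448 with stimulation alone. Of the 6 tested fibroblast and meningeal markers, Dcn and Postn were called lower with stimulation alone (-1.77 and -1.93), with interactions of 0.96 (adjusted p = 0.0107) and 2.04 (adjusted p = 0.0079). This list went both ways. Its interaction was called above 0 for 2 of the 6 and below 0 for 2, beside 6.86% and 12.3% of all intervals. After injury 4 of the 6 were called higher against control and none lower, beside 19.3% and 11.7%. The part of these cells, and of smooth muscle, in the Trpc6 result was not tested. The counted bases of Trpc6 had a GC content of 44.5%, near the lower quartile of tested intervals (44.2%). With the trend over GC content and length removed, the fall with stimulation alone was -1.17 (adjusted p = 0.000655), that with injury -0.77 (adjusted p = 0.00569) and that with injury and stimulation -0.51 (adjusted p = 0.0512).

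**Figure D5:**
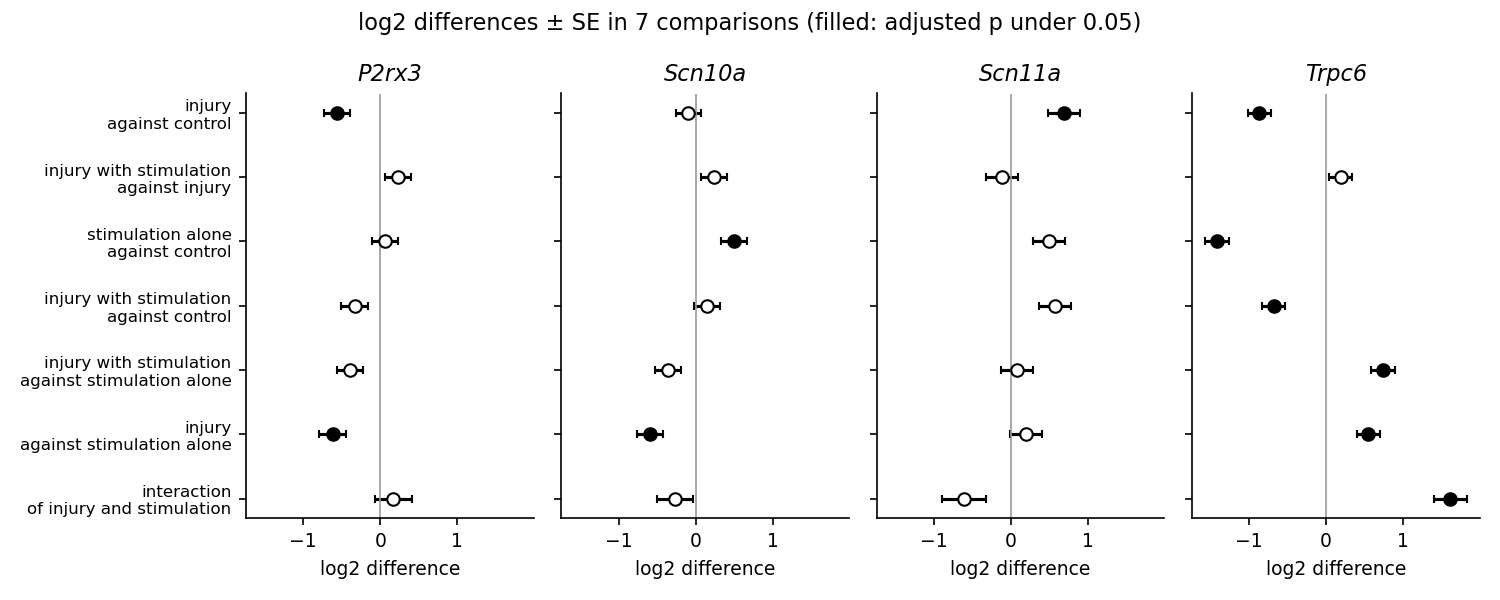
log2 differences ± SE (horizontal axes) of the 4 genes in the 6 pairwise comparisons and the interaction (rows); filled points have an adjusted p under 0.05. Trpc6 has filled points in every comparison but that of injury with stimulation against injury, where no gene of the 4 has one.

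Seen by comparison, the members did not move as a group. After injury 3 of the 4 were called against control, 1 higher (Scn11a at its 3′ end) and 2 lower (P2rx3 and Trpc6), where 31.0% of all 13053 tested intervals were called, 19.3% higher and 11.7% lower. With stimulation alone 2 were called, Scn10a higher and Trpc6 lower, against 29.8% of all intervals (18.2% higher and 11.7% lower). With injury and stimulation only Trpc6 was called against control, lower, with 17.2% of all intervals called (12.3% higher and 4.93% lower). None was called between injury with stimulation and injury, where 1.54% of all intervals were (0.0383% higher and 1.50% lower). Only Trpc6, higher, was called between injury with stimulation and stimulation alone, where 4.07% of intervals were called (2.21% higher and 1.85% lower). Between injury and stimulation alone 3 were called, P2rx3 and Scn10a lower and Trpc6 higher, where 14.4% of all intervals were called (7.66% higher and 6.72% lower). The interaction was called for Trpc6 alone of the 4, with 19.2% of all intervals called (6.86% above 0 and 12.3% below). With calls this common over all intervals, a count of 3 or fewer of the 4 members is not a result about these channels as a set. The comparisons against control and the interaction share the control libraries, and those with stimulation alone share that group.

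Over all 4 groups at once, a difference was called for Trpc6 (adjusted p = 0.00016), P2rx3 (0.0234) and Scn10a (0.032) and not for Scn11a (0.0559), in the edgeR test, with 38.6% of all intervals called. Over the 12 libraries, which share group means and depth, the log2 levels of P2rx3 and Scn10a had a Pearson correlation of 0.66. The correlation was -0.38 for P2rx3 and Scn11a, 0.36 for Scn10a and Scn11a, and 0.03, -0.49 and -0.48 for Trpc6 with P2rx3, Scn10a and Scn11a. These are descriptions over the same few libraries.

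Ratios between nociceptor channels within a library do not depend on how libraries were scaled. The ratio of P2rx3 to Scn10a reads was 0.488, 0.519 and 0.585 in controls and between 0.318 and 0.432 in the 9 other libraries, so controls lay above all treated libraries. The ratio of Scn10a to Scn11a (3′ end) was 0.476, 0.451 and 0.505 in controls, 0.272, 0.254 and 0.302 after injury, 0.274, 0.447 and 0.378 with injury and stimulation and 0.454, 0.419 and 0.553 with stimulation alone. The ratio of P2rx3 to Scn11a had group means of 0.252, 0.104, 0.135 and 0.182 in the same order. Each ratio differed among the groups by a two-sided exact permutation test over all 369600 assignments of the libraries (P2rx3 to Scn10a, p = 0.019; P2rx3 to Scn11a, p = 0.0184; Scn10a to Scn11a, p = 0.0119), with an adjusted p of 0.0190 for each over the 3 ratios. Without control replicate 3 the adjusted p values were 0.0897, 0.0806 and 0.0748. The 2 ratios with Scn11a carry its dependence on position. The counted bases of P2rx3 and Scn10a also lie at different places, at medians of 64.7% and 23.0% of the transcript from its 3′ end. The part of coverage in their ratio was not tested.

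The genes whose log2 levels ran most like those of each member over the 12 libraries were taken from 3194 named genes with a mean of at least 5 CPM. For P2rx3 they were Sybu (Pearson r = 0.946), Trpv1 (0.933), the capsaicin receptor of peptidergic nociceptors, and Wdr7 (0.928). For Scn10a they were Skiv2l (0.938), Scap (0.923) and Zfp609 (0.904). For Scn11a they were Plcb3 (0.982), a phospholipase C, Myadm (0.954) and Cdh1 (0.952), the adhesion protein E-cadherin. For Trpc6 they were Evi5 (0.956), Cwf19l2 (0.945) and Cmpk1 (0.941).

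Other channels of these families were set beside the members, though few could be read. None of the 6 other ATP-gated channel genes listed could be named by position. Of 12 other voltage-gated sodium channel genes 2 were tested. Scn8a, the channel of nodes of Ranvier, rose from 227 ± 6.29 CPM in controls to 370.5 ± 20.1 with stimulation alone (log2 difference 0.71 ± 0.13, adjusted p = 0.001) and to 347 ± 44.0 with injury and stimulation (0.61 ± 0.13, adjusted p = 0.007). Scn1a was called in no comparison, with 89.9 ± 6.49 CPM after injury and 86.5 ± 15.7 with stimulation alone.

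Of 25 other TRP channel genes 7 were tested, and 2 were called higher and none lower in each treated group against control, where 19.3% (injury), 12.3% (injury with stimulation) and 18.2% (stimulation alone) of all intervals were called higher. They were Trpm4, a cation channel opened by calcium, with 15.0 ± 2.33 CPM in controls and 26.0 ± 3.27 after injury, and Mcoln1, a lysosomal channel, with 36.7 ± 4.91 and 51.4 ± 3.67. Trpv1 had 24.2 ± 3.23 CPM in controls and 17.4 ± 4.22 after injury (-0.48 ± 0.22, adjusted p = 0.11). The median difference of these 7 genes was -0.12 after injury and 0.19 with stimulation alone, where that of all tested intervals was 0.03 in both. Of 11 acid-sensing and mechanically gated channel genes 2 were tested. Asic1, an acid-sensing channel, rose in all 3 treated groups (after injury from 17.9 ± 2.11 to 40.5 ± 7.30 CPM, adjusted p = 0.003), and Piezo2, the channel of touch, rose with stimulation alone from 14.7 ± 2.57 to 24.7 ± 3.17 CPM (adjusted p = 0.0128).

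Of 21 other genes of non-peptidergic nociceptors, the class that P2rx3 marks, 6 were tested. After injury 1 was called lower and none higher, where 11.7% of all intervals were called lower and 19.3% higher. The median difference of the list was -0.79 after injury, -0.59 with injury and stimulation and -0.34 with stimulation alone, with all intervals at 0.03, -0.02 and 0.03. The gene called was Prkcq, a protein kinase C, at 13.7 ± 1.50 CPM in controls and 6.11 ± 0.751 after injury (-1.17 ± 0.29, adjusted p = 0.0064). It was also lower with injury and stimulation and with stimulation alone, where P2rx3 was not called. Ptgir, the prostacyclin receptor, and Gfra2, the neurturin receptor, were called lower, like P2rx3 and Scn10a, in injury against stimulation alone, at -1.06 ± 0.24 (adjusted p = 0.0074) and -0.76 ± 0.21 (adjusted p = 0.025). Against control, neither was called after injury (-0.41, adjusted p = 0.21, and -0.31, adjusted p = 0.28). Ptgir was called higher with stimulation alone than in controls (0.65 ± 0.23, adjusted p = 0.046). Of 11 genes of peptidergic nociceptors 3 were tested. Ngfr, the low-affinity nerve growth factor receptor, was called higher in every treated group against control. With stimulation alone it went from 307 ± 47.9 to 748 ± 65.8 CPM. Tac1 went the other way there, from 821 ± 74.0 to 587 ± 93.6 CPM (-0.48 ± 0.18, adjusted p = 0.0485). In that comparison 1 of the 3 genes was called higher and 1 lower, beside 18.2% and 11.7% of all intervals.

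Of 13 partners and regulators of these channels 7 were tested, and 3 were called lower and none higher after injury, beside 11.7% lower and 19.3% higher of all intervals. Cntn1, an adhesion protein that binds sodium channels, went from 75.4 ± 11.1 to 21.9 ± 4.35 CPM after injury (-1.78 ± 0.36, adjusted p = 0.0029). Prkce, a protein kinase C of nociceptors, went from 12.3 ± 4.44 to 4.56 ± 0.451 CPM (-1.43 ± 0.47, adjusted p = 0.031). With stimulation alone 1 of the 7 was called higher and 1 lower, beside 18.2% and 11.7% of all intervals. Nedd4l was the higher one, from 18.5 ± 1.59 to 27.2 ± 4.11 CPM (0.56 ± 0.18, adjusted p = 0.0282). Cask was the lower one (-0.65 ± 0.22, adjusted p = 0.0328). It was also lower with injury and stimulation against control (-0.71 ± 0.22, adjusted p = 0.0343). Pirt, a regulator of TRP channels, was not called in any comparison. The 5 tested of 20 genes of sensory neuron identity were all called higher with stimulation alone, and 3 of them after injury, beside 18.2% and 19.3% of all intervals. Neurofilament gene Nefm went from 721 ± 7.22 to 1749 ± 88.3 CPM with stimulation alone, in the same libraries in which Trpc6 was lowest.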

How the data were processed

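Values were the counts deposited by the authors, whole numbers for 56941 gene identifiers in each of the 12 trigeminal ganglion libraries. Per the file headers they were made with featureCounts 2.0.6 on Ensembl 110 models for GRCm39, for paired libraries, unstranded, with single reads counted in each interval they overlap. FastQC, DESeq2 and Salmon 1.10.2 are named in the submitters' processing notes. Which aligner version and build placed the reads is not given in the sources used here. The reads lay at GRCm38 coordinates, so an interval took a gene's name if it lay over exons of that GENCODE M21 gene only, on at least 100 bases. Where several did, the interval over the largest number of exon bases took the name.

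One edgeR 4.0.16 quasi-likelihood fit (robust, TMM, filterByExpr) covered 12 libraries and 13053 intervals, with Benjamini-Hochberg adjustment, and calls at an adjusted p under 0.05. CPM are counts scaled to 1e6 after TMM, with SD over n = 3. Members and lists were chosen with earlier results of these data known. Named genes are the members, the 3 genes most like each in log2 CPM, and up to 4 genes of each list with the smallest p over the 4 groups. Pirt and some named cell type markers fall outside this rule. Ratios used counts plus 0.5. Alternatives were DESeq2 1.42.0 (test, size factors), no filter, separate fits, a replicate block, removal of the GC and length trend, other intervals, the coverage value, and each library left out. The fit was tested on simulated data. R 4.3.3, limma 3.58.1 and Python 3.11.15 (numpy 2.4.6, pandas 2.3.3, matplotlib 3.10.9) were used. Because counting was unstranded, reads of the opposite strand are included. Some sequences and genes are not reported here.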

Additional observations from a re-analysis of the deposited data

Results flagged for a closer look

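The log2 difference of Trpc6 with stimulation was -1.42 in uninjured mice and 0.19 in injured mice, and the interaction test gave 1.61 ± 0.21 for the difference between these changes (edgeR, adjusted p = 0.000849). It ran from 1.51 to 1.83 over the 12 fits without a library, with an adjusted p of at most 0.00622, and was 1.43 (adjusted p = 0.00384) after removal of the trend over GC content and length.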

How the results depend on the processing

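Of 619 alternative values of member differences, 523 kept their direction and side of the threshold, 56 lost the call, 12 gained one and 28 changed sign. Sign changes were, for P2rx3 with stimulation alone against control, -0.40 without the trend over GC content and length, -0.41 with a replicate block added, -0.02 without control replicate 3 and -0.10 without stimulation alone replicate 3 (leaving out each library gave -0.10 to 0.20). For Scn10a they were 0.053 without control replicate 2 (injury against control, -0.24 to 0.053 over libraries left out) and -0.00182 without control replicate 3 (injury with stimulation against control, up to 0.29). For Scn11a, injury with stimulation against stimulation alone was -0.10 without injury with stimulation replicate 1 (-0.10 to 0.31 over libraries left out), -0.053 with all intervals summed, -0.050 through Gorasp1 and -0.36 with the coverage value, with which injury against stimulation alone was -0.35. Injury with stimulation against injury was 0.16 without injury with stimulation replicate 2 (-0.29 to 0.16 over libraries left out). Through the interval deposited as 1700019L13Rik, Scn11a gave -1.24 for injury (called, against 0.69 called in the reported fit) and -0.60 for injury with stimulation against control, 0.63 between these, and -1.32 and -1.95 for injury with stimulation and injury against stimulation alone (both called). Through Ttc21a these were -0.62, -0.49, 0.13, -0.75 and -0.88 (the last called), and through Csrnp1 -1.23, -0.74, 0.49, -0.91 and -1.40 (the first and last called), with an interaction of 0.32. The cause of these changes was not tested.

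Replicate numbers did not pair the libraries: of 18 same-number pairs 1 correlated above 0.1 (-0.29 to 0.22). With the replicate block Scn10a lost its calls for stimulation alone against control (0.49, adjusted p = 0.0604) and injury against stimulation alone (-0.59, adjusted p = 0.0508). With it, 294 intervals were called between injury with stimulation and stimulation alone, against 531 without it.

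Counts of called intervals moved by over 1.5 times as follows. For injury with stimulation against injury (201 in the reported fit) they were 368 with DESeq2, 364 without the filter, 127 with only these groups and 557 with the coverage value. For injury with stimulation against stimulation alone they were 1151 with DESeq2, 232 without the trend over GC content and length and 1767 with the coverage value. With only these groups edgeR called 0 (1730 at an unadjusted p under 0.05). For injury with stimulation against control (2247) they were 1125 with only these groups, 1494 without that trend and 33 with the coverage value, and for injury against control (4046) 168 with the coverage value. Without that trend they were 2179 for stimulation alone against control (3896) and 773 for the interaction (2507). With that removal and the replicate block they were 2487 for injury, 1605 for stimulation alone and 617 for injury with stimulation against control, 92 against injury, 52 and 1185 for the injured groups with and without stimulation against stimulation alone, and 428 for the interaction.

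With 1 library left out, counts ran from 2465 to 4847 for injury against control, 2640 to 4593 for stimulation alone against control, 11 to 4349 for injury with stimulation against control, 5 to 338 for it against injury, 74 to 1804 for it against stimulation alone, 903 to 2604 for injury against stimulation alone and 1126 to 3407 for the interaction. The log2 ratio differences of injury from control ran from -0.55 to -0.41 (P2rx3 to Scn10a), -1.40 to -1.15 (P2rx3 to Scn11a) and -0.86 to -0.74 (Scn10a to Scn11a).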
